A study of Mus musculus with 6 samples.

Results

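The cells described here came from a culture of dendritic cells (DCs) stimulated with vitamin D3 (VD3) and held RNA of Ms4a7 and Gdf15 together. They were chosen by measured counts: 2 or more unique molecular identifiers (UMIs, each standing for 1 captured RNA molecule) of Ms4a7, 1 or more of Gdf15, at most 1 of Ccr7 and none of Mki67 or Top2a. This rule took 268 of the 8825 cells kept in the VD3 library, or 3.04% (exact 95% interval 2.69 to 3.42), out of 35083 kept cells in the 6 libraries of the series. Kept cells had 300 or more genes, fewer than 100000 UMIs and less than 10% of UMIs from mitochondrial genes. Because the rule used Ms4a7, Gdf15, Ccr7, Mki67 and Top2a, the levels of these 5 genes are given as a description and not as a finding.

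Bone marrow cells of wild-type C57BL/6J mice, 6 weeks old, were grown with GM-CSF, and the cells in suspension were taken while adherent cells were thrown away. In the VD3 stimulated DCs, the active hormone was added on day 7 at 1e-06 M for 24 h. The untreated DCs got none, and the Ndrg2-KO DCs were edited with Cas9 against Ndrg2. The other libraries were skin wounds of wild-type mice covered with hydrogels that carried control DCs, Ndrg2-KO DCs or no cells (blank hydrogels); the methods give the control DCs non-targeting guides, while the labels call them untreated. Every condition was 1 library of single-cell RNA-seq (10X Genomics, 3′ v3 chemistry), so differences between libraries could not be checked against replicates, and no test was made. All intervals are exact 95% intervals of counting error only, and they are too narrow where a few cells hold most UMIs of a gene.

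Ms4a7 encodes a membrane protein of the MS4A family found in macrophages, and Gdf15 a secreted stress-induced member of the TGF-beta superfamily. VD3 acts through the vitamin D receptor, which pairs with a retinoid X receptor on DNA, and the gene of the hormone's own degrading enzyme, Cyp24a1, is its best known target. GM-CSF cultures of bone marrow are known to hold macrophage-like cells beside DCs at several stages, and mature DCs are marked by the chemokine receptor Ccr7 and the actin bundler Fscn1. Ccl3 and Ccl4 encode inflammatory chemokines, Pdgfa a growth factor for fibroblasts and other mesenchymal cells, and Hbegf a ligand of the epidermal growth factor receptor.

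The cells with Ms4a7 and Gdf15 held 4836523 UMIs in all, with 2152 in the shallowest cell, a median of 16224 and 61254 in the deepest. The other 8557 kept cells had a median of 11941 UMIs. Since at least 3 UMIs of 2 genes were needed, the rule depended on depth: it took 2 of 2464 cells under 5000 UMIs (0.0812%), 1.73% of those from 5000 to 10000, 5.04% of those from 10000 to 20000 and 3.85% of the deeper ones. The median mitochondrial share was 7.005% against 5.54% in the other cells, and 24 of the 268 (8.96%) lay under 5% against 42.0% of the other cells. Its part in the results was not tested beyond the alternative with a 5% limit. None of the 268 barcodes was a kept cell of the other DC libraries or of the wounds with DCs, and 1 was shared with the wounds with blank hydrogels.

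**Figure D1:**
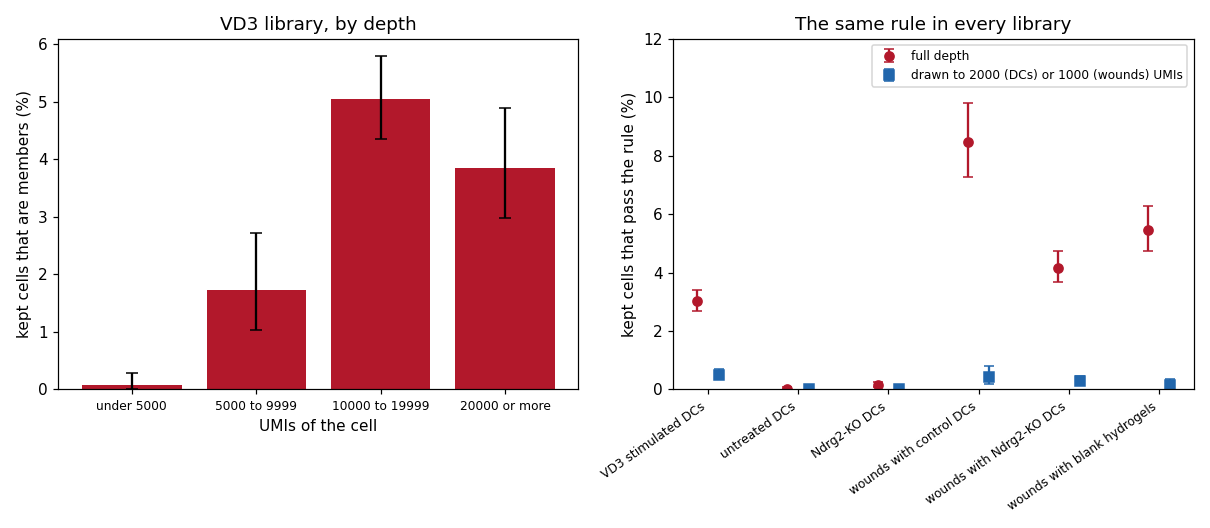
Left, bars give the percent of kept cells of the VD3 library that passed the rule, by UMIs of the cell. Right, points give the percent that passed the same rule in each library at full depth (circles) and after drawing each cell to 2000 UMIs (DCs) or 1000 UMIs (wounds), with shallower cells left out (squares). Lines are exact 95% intervals of counting error. The share is lowest under 5000 UMIs (0.0812%), and among the DC libraries it is highest with VD3 (3.04%).

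Of all 875 kept cells with 2 or more Ms4a7 UMIs, the 268 made up 30.6%. Another 347 (39.7%) met every other part of the rule but held Mki67 or Top2a UMIs and are called cycling cells with Ms4a7 and Gdf15 below. A further 152 were cycling without Gdf15 or with Ccr7, 85 had 2 or more Ccr7 UMIs without cycling, and 23 had no Gdf15 UMI. Gdf15 was thus found in 805 of the 875 cells (92.0%), against 29.6% of the kept cells with fewer Ms4a7 UMIs; the median depths of these groups were 23009 and 11325 UMIs. The 23 cells without Gdf15 are not compared as a group of their own, since 1 of them held 390 of their 446 Ccl3 UMIs and 1071 of their 1168 Ccl4 UMIs.

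The rest of the library served as the comparison, with summed UMIs scaled to 1000000 (CPM). Apart from the cycling cells, named subsets of it were 3232 mature cells with 2 or more Ccr7 UMIs, 2848 cells with low Ms4a7 (at most 1 UMI) and low Ccr7, and, within the latter, 150 cells with UMIs of at least 3 of 6 granulocyte genes. A gene was called higher or lower past a 2-fold ratio of CPM, among the 10526 genes with at least 200 UMIs in the library. Against all other kept cells, 554 genes (5.26%) were higher and 1223 (11.6%) lower, and the median log2 ratio was 0.00 after rounding. These shares are the background for each list below, and they follow from a comparison of selected cells with a mixture. Against only the 2848 cells with low Ms4a7, which were also without cycling UMIs, 133 of 7197 genes (1.85%) were higher past 2-fold and 245 (3.4%) lower. Of the 554 genes higher against all other kept cells, 385 had the 200 UMIs over both groups that this comparison asked for. Past 2-fold higher there were 114 of them, and 25 were below the low Ms4a7 cells by less than 2-fold. The low Ms4a7 cells were shallower, with a median of 2864 UMIs, and had a median mitochondrial share of 2.09%.

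The genes of the rule were set by it. Ms4a7 (ENSMUSG00000024672, chromosome 19 from 11321039 to 11336146 in GRCm38) held from 2 to 29 UMIs in a member, with a median of 4, and stood at 303 CPM against 31.3 CPM in the other cells. Gdf15 (ENSMUSG00000038508, chromosome 8 from 70629393 to 70632456) held from 1 to 127 UMIs with a median of 11, and stood at 827 CPM against 221 CPM. Gdf15 was also found in other cells and reached 635 CPM in the cycling cells with Ms4a7 and Gdf15, 339 CPM in cells with low Ms4a7 and 43.9 CPM in mature cells. Ms4a7 was at 13.5 CPM in the cells with low Ms4a7 and 10.3 CPM in mature cells. The 150 granulocyte cells held 2 UMIs of it in all. Cells with low Ms4a7, which include the granulocyte cells, were limited to 1 UMI by their definition. Since the rule asked for 2 Ms4a7 UMIs but 1 Gdf15 UMI, the falls of the 2 genes are not compared.

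Around the limit on Ms4a7, Ccl4 and C1qb fell in order with the count of Ms4a7 UMIs, while other markers did not. Members with exactly 2 Ms4a7 UMIs, 74 cells, had 545 CPM of Ccl4, and the 142 cells just outside with 1 Ms4a7 UMI and Gdf15 had 537 CPM. Members with 3 or more Ms4a7 UMIs, 194 cells, had 1222 CPM, and the 694 cells with Gdf15 and no Ms4a7 UMI had 378 CPM. The macrophage gene C1qb went from 1446 CPM with 3 or more Ms4a7 UMIs to 1287 CPM with 2, 798 CPM with 1 and 560.0 CPM with none. Ccl3 was at 368 CPM with 2 and 429 CPM with 1, and Pdgfa at 266 and 288 CPM. Hbegf was at 160 CPM with 3 or more and 171 CPM with 2. The median depth of these groups also fell, from 16585 UMIs with 3 or more to 14940, 13152 and 8013 UMIs. At the edge on Gdf15, 18 members with 1 UMI had 213 CPM of Ccl4 and 250 with 2 or more had 1105 CPM. The 23 cells outside, without Gdf15, had 3107 CPM, but with most of their Ccl4 UMIs in 1 cell this edge cannot be read. At the edge on Ccr7, 65 cells with 2 or more Ccr7 UMIs beside Ms4a7 and Gdf15 had 112 CPM of the mature DC gene Fscn1, against 4.995 CPM in the 29 members with 1 Ccr7 UMI, and a median depth of 32217 UMIs.

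The chemokines Ccl3 and Ccl4 were higher than in the other kept cells as a whole. Ccl3 (chromosome 11 from 83647844 to 83649355) held 0 UMIs in the lowest member, a median of 5 and 166 in the highest, and stood at 570.5 CPM (549 to 592) against 120 CPM in the other cells, a log2 ratio of 2.25. Ccl4 (chromosome 11 from 83662584 to 83664683) held 0, 4 and 351 UMIs in the lowest, median and highest member and stood at 1061 CPM (1032 to 1091) against 163.5 CPM, a log2 ratio of 2.70. The cells were far from even: the highest 16 of the 268 held at least 50% of the Ccl4 UMIs and the highest 30 at least 50% of the Ccl3 UMIs. After drawing every cell to 2000 UMIs, 47.8% of members and 12.7% of the other cells held a Ccl3 UMI, and 47.4% and 10.6% a Ccl4 UMI. Mature cells, at the same depth, gave 1.77% and 2.11%, taken here as the level that free RNA in droplets could give at most.

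The growth factor ligands Pdgfa and Hbegf were less concentrated in a few cells, with at least 50% of the UMIs in the highest 38 and 57 members. Pdgfa (chromosome 5 from 138976014 to 138997370) held 0, 4 and 106 UMIs in the lowest, median and highest member, and stood at 327 CPM (311 to 343) against 123 CPM, a log2 ratio of 1.41. Hbegf (chromosome 18 from 36504927 to 36515805) held 0, 2 and 15 UMIs and stood at 162 CPM (151 to 174) against 70.4 CPM, a log2 ratio of 1.20. At 2000 UMIs, 38.4% of members and 14.1% of the other cells held a Pdgfa UMI, and 25.0% and 10.1% a Hbegf UMI. At full depth, 142 of the 268 held UMIs of all 4 of Ccl3, Ccl4, Pdgfa and Hbegf, as did 932 of the shallower other cells (10.9%). Drawn to 2000 UMIs, these shares were 4.48% and 0.527%. The ratios depended on the comparison. Against the cells with low Ms4a7, the log2 ratio was 1.96 for Ccl4, 1.16 for Pdgfa, 1.06 (0.994 to 1.13) for Ccl3 and 0.73 for Hbegf, the last under 2-fold. With the 23 cells without Gdf15 added to them, of which 1 held most Ccl3 and Ccl4 UMIs, Ccl4 was at 1.63 and Ccl3 at 0.95.

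**Figure D2:**
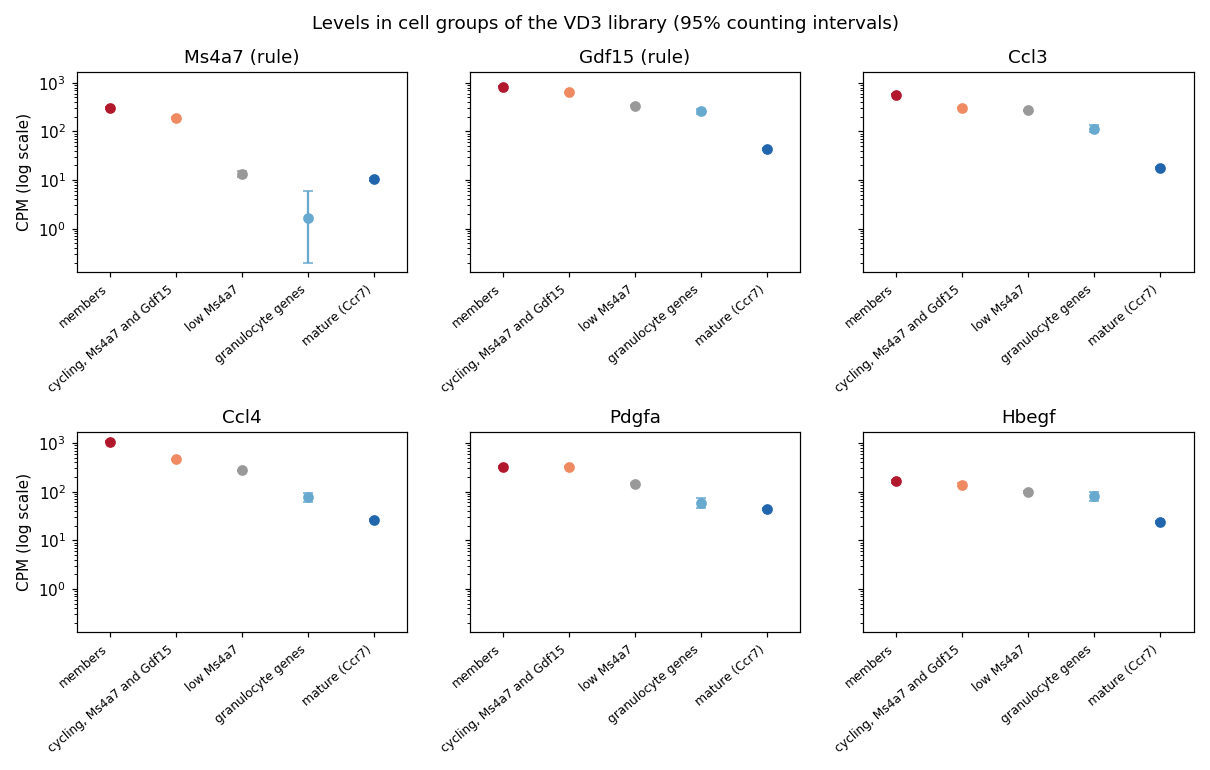
Points give CPM on a log axis in 5 cell groups of the VD3 library for the 2 genes of the rule and for Ccl3, Ccl4, Pdgfa and Hbegf, with exact 95% intervals of counting error (most are narrower than the point). Mature cells have the lowest Ccl3, Ccl4, Pdgfa and Hbegf, while Pdgfa is at 327 CPM in members and 328 CPM in cycling cells with Ms4a7 and Gdf15.

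The members were next compared with the 347 cycling cells with Ms4a7 and Gdf15, which had a median of 23881 UMIs. Of 6370 genes with at least 200 UMIs over the 2 groups, 17 (0.267%) were higher past 2-fold in the members and 278 (4.36%) were lower. All 10 listed cell cycle genes were among the lower ones, which the absence of Mki67 and Top2a in the rule leads to. Pdgfa was level, with a log2 ratio of -0.01 (-0.10 to 0.08), and Hbegf nearly so at 0.22 (0.08 to 0.34). Ccl3 was higher by 0.92 (0.842 to 0.996) on the log2 scale, and Ccl4 by 1.20 (1.14 to 1.26). None of the 11 macrophage markers tested was past 2-fold.

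By the bound of the interval nearest 0, the first 5 of the 17 higher genes were Mmp12, a macrophage elastase, at 618 against 220 CPM, the fatty acid scavenger receptor Cd36 at 173 against 63.4 CPM, the neutrophil-attracting chemokine Cxcl3 at 493 against 198 CPM, the secreted pattern receptor Ptx3 at 106 against 40.5 CPM, and Plet1 at 246 against 101 CPM. Ccl4, Il1b, the protein C receptor Procr, and the long non-coding Gm26917 also passed 2-fold. At 2000 UMIs, Mmp12 was found in 24.3% of members, 16.2% of the cycling cells with Ms4a7 and Gdf15 and 1.15% of mature cells, and Cxcl3 in 17.2%, 10.7% and 1.03%. Cd36 was found in 12.3%, 6.07% and 7.09%. Of the Mmp12 UMIs, 485 of 2988 came from 1 member, and 9 members held at least 50% of them. The same share of the Cxcl3 and Ptx3 UMIs was held by 9 and 10 members.

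Against all other kept cells, the 10 largest rises, by the same ranking, were Ccl7, Ptx3, Cxcl3, Mmp12, Ccl4, Mmp13, Ccl2, Hmox1, Flrt2 and Ptges. Ccl2, which attracts monocytes through Ccr2, was at 407 CPM (389 to 425) against 62.6 CPM, and Hmox1, which breaks down heme, at 438 CPM (419 to 457) against 81.9 CPM. At 2000 UMIs, Hmox1 was found in 39.9% of members, 9.18% of the other cells and 2.98% of mature cells, and Ccl2 in 29.1%, 5.44% and 0.839%. Ccl7, a relative of Ccl2, had 88 UMIs in 33 members and a log2 ratio of 3.32 (2.94 to 3.69). Mmp13, a collagenase, must be read with care: 42 of its 63 UMIs came from 1 member and 5 members held any. Flrt2 and Ptges, the latter an enzyme of prostaglandin E2 synthesis, had 82 and 63 UMIs.

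**Figure D3:**
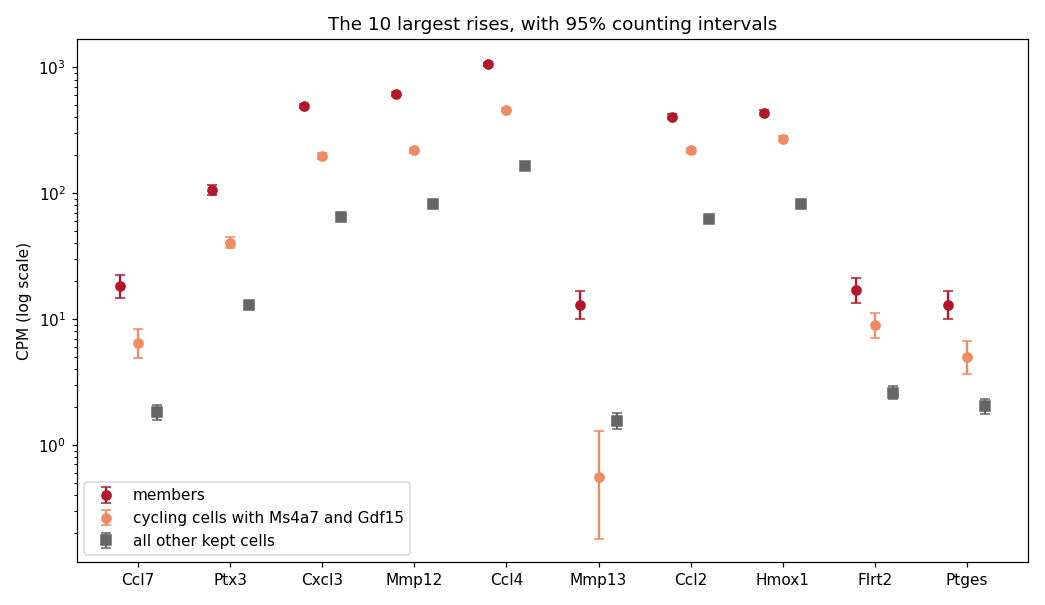
CPM on a log axis of the 10 genes with the largest rises, in members, in cycling cells with Ms4a7 and Gdf15 and in all other kept cells of the VD3 library, with exact 95% intervals of counting error. For every gene but Mmp13, the cycling cells lie between the members and the other cells. Mmp12 is at 618, 220 and 82.3 CPM.

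Macrophage markers were higher together. Of 12 listed genes, all tested, 11 were past 2-fold and none was lower, with a median log2 ratio of 1.67 beside the background share of 5.26%. Csf1r, the receptor of the macrophage growth factor CSF1, held 0, 5 and 21 UMIs in the lowest, median and highest member and stood at 329 CPM against 105 CPM. C1qb, a chain of complement C1q, stood at 1408 CPM against 403 CPM, and the mannose receptor Mrc1 at 63.1 against 11.9 CPM. At 2000 UMIs, 63.4% of members (57.4 to 69.2) held UMIs of 3 or more of the 12 markers, against 13.7% of all other cells and 1.83% of mature cells. The list's summed level was 3648 CPM against 1119 CPM. Beside the low Ms4a7 cells, 6 of 11 tested were past 2-fold, among them C1qb and Mrc1, while Csf1r was at 0.82 on the log2 scale.

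The labels call the culture dendritic, and the markers of that lineage were divided. Itgax, which encodes CD11c and is shared with macrophages, was higher at 181 against 73.3 CPM. Of the 7 DC markers tested it was the only one past 2-fold upward, while Zbtb46, Dpp4, Irf8 and Batf3 were past it downward. Set against the low Ms4a7 cells, Itgax was at 0.91 on the log2 scale, and of 5 DC markers tested only Kmo was past 2-fold, downward. Flt3, the receptor that defines DC progenitors, had 0 UMIs in the 268 cells. Zbtb46, a transcription factor of classical DCs, was at 4.34 against 26.4 CPM. The growth factor receptors and enzymes that define osteoclasts were not complete either: Acp5, Dcstamp, Atp6v0d2 and Tcirg1 were higher, Mmp9, Itgb3 and Tnfrsf11a lower, Calcr and Oscar were at 0, and Ctsk had 2 UMIs. Compared with the low Ms4a7 cells, Acp5, Dcstamp and Atp6v0d2 were past 2-fold upward of 7 osteoclast markers tested and Mmp9 downward, while Tcirg1 was at 0.80 on the log2 scale and Tnfrsf11a at 0.38 (-0.05 to 0.80). Mmp9 was at -6.60 against the granulocyte cells, -0.87 against all cells with Mki67 or Top2a UMIs and 0.08 (-0.83 to 0.88) against mature cells.

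Mature DC genes were low, as the limit on Ccr7 leads to. Of 11 listed, 10 were lower past 2-fold, with a median log2 ratio of -4.24 beside the background of 11.6%. Fscn1 had 12 UMIs, or 2.48 CPM against 182 CPM, and the chemokines Ccl22 and Ccl5 stood at 38.0 against 834 CPM and 40.5 against 2821 CPM. Socs2, an inhibitor of cytokine signals, was the exception at 238 against 399 CPM. At 2000 UMIs, 5.97% of the members (3.45 to 9.51) held UMIs of 3 or more mature DC markers, against 97.9% of mature cells and 9.39% (8.11 to 10.8) of the low Ms4a7 cells. Compared with the latter, 6 of the 11 were lower past 2-fold, with a median log2 ratio of -1.29. Antigen presentation was less divided: of 7 MHC class II genes only H2-Eb1 was past 2-fold, at 392 against 954 CPM, and H2-Ab1 was level at 550.2 against 561 CPM.

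Most markers of other blood lineages were low or at 0. Of 8 neutrophil markers, 7 were lower, among them Ngp with 4 UMIs and S100a9 at 37.0 against 2437 CPM, and the list's summed level was 506 CPM against 6715 CPM. At 2000 UMIs 1.87% of members (0.608 to 4.30) held 3 or more of them, against 10.1% of the other cells, 21.3% of the low Ms4a7 cells and 0.839% of mature cells. Mmp8, listed as a neutrophil collagenase, was higher at 271 against 112 CPM, and at 2000 UMIs 33.6% of members held it, against 14.0% of the other cells. It was slightly lower than in the cells with low Ms4a7, with a log2 ratio of -0.31. All 7 basophil and mast cell genes tested were lower, with Mcpt8, Cpa3, Ms4a2 and Fcer1a at 0 UMIs. The falls ranked highest against all other kept cells were BC100530 (1 UMI), Ngp, Ccl5, S100a9, Stfa1 (3 UMIs), Serpinb6b (6 UMIs), Fscn1, Nudt17 (1 UMI), Stfa2 and Igkc (1 UMI). Igkc was at -10.4 on the log2 scale against the low Ms4a7 cells and -2.26 (-7.59 to 0.29) against mature cells. Its direction turned against the cycling cells with Ms4a7 and Gdf15 and within the members' cluster, as given at the end. Stfa2 was at 0 UMIs. Its log2 ratio was -5.42 with 3 UMIs over the group set in place of 0, and the bound of its interval was -5.12. Of 8 lymphocyte genes 7 were at 0, and of 6 erythroid genes 5 were.

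**Figure D4:**
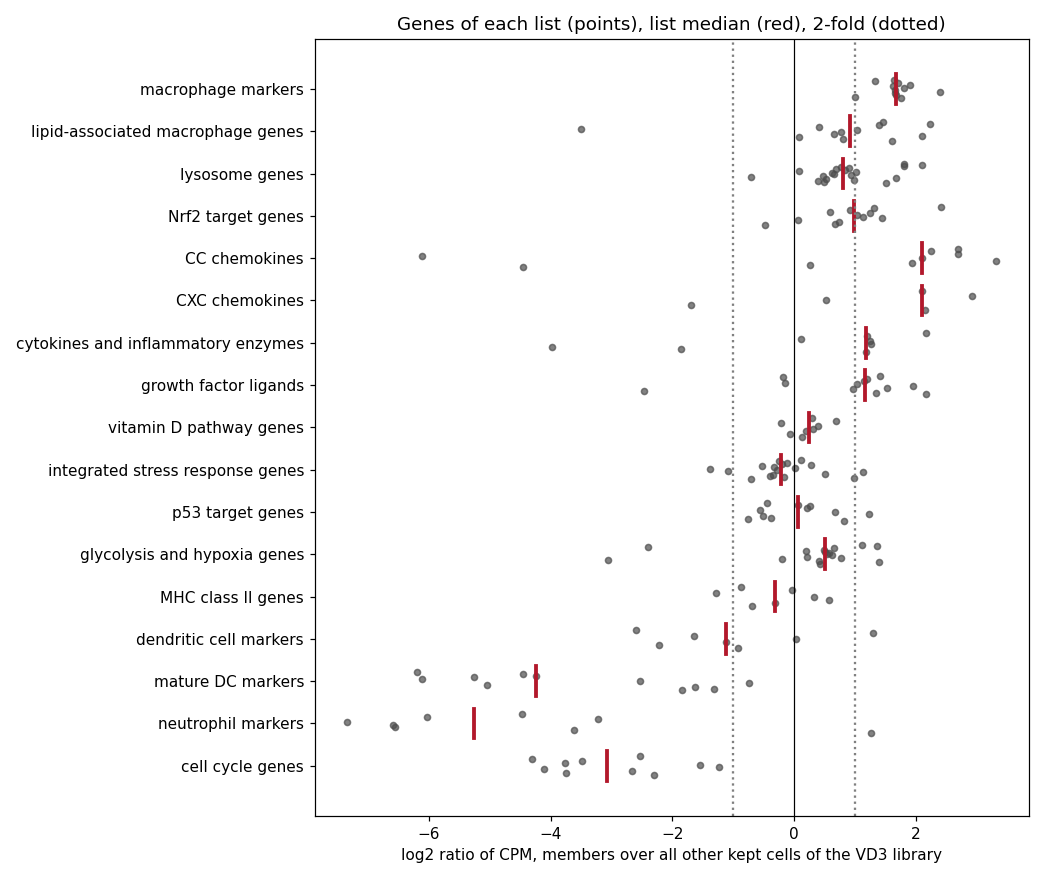
Each point is a gene with at least 200 UMIs, placed by its log2 ratio of CPM in members over all other kept cells of the VD3 library; red bars are list medians and dotted lines mark 2-fold. Macrophage markers lie around a median of 1.67 and mature DC markers around -4.24, while vitamin D pathway genes lie within 2-fold.

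Among CC chemokines, 6 of 9 tested were higher, namely Ccl2, Ccl3, Ccl4, Ccl6, Ccl7 and Ccl9, and Ccl5 and Ccl22 were lower. The most abundant was Ccl6, at 6318 against 1476 CPM and at 2000 UMIs in 94.8% of members, 48.2% of the other cells and 22.3% of mature cells, followed by Ccl9 at 2321 against 603 CPM. Among CXC chemokines, Cxcl2, Cxcl3 and Pf4 were higher of 5 tested and Cxcl16 was lower. Pf4, a chemokine of platelets and macrophages, was at 1128 against 254 CPM. Of 8 cytokine and inflammatory enzyme genes tested, Il1a, Il1b, Tnf, Il6 and Ptgs2 were higher and Il12b and Il18 lower. Il1a was at 101 against 22.3 CPM and Tnf at 95.5 against 40.02 CPM, and Il10 and Nos2 had 0 UMIs. Against the cells with low Ms4a7, Il1a was still past 2-fold at 1.48, but Tnf was at -0.06 (-0.21 to 0.09), Ptgs2 at 0.47 and Il1b lower, at -0.74 (-0.91 to -0.57). In that comparison 5 of 8 CC chemokines were higher, as were Cxcl3 and Pf4, while Cxcl2 was at 0.51.

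Of 22 growth factor ligands, 12 could be tested, 8 were higher and Tgfb2 was lower, beside backgrounds of 5.26% and 11.6%. Besides Pdgfa and Hbegf these were Osm, a cytokine of the interleukin-6 family, at 73.8 against 25.6 CPM, Vegfa, the main angiogenic factor, at 30.4 against 13.7 CPM, and Pgf, Igf1, Tgfb3 and Inhba, each with 27 to 46 UMIs in the members. Inhba, a subunit of activin, had 29 of its 46 UMIs in 1 member, and its log2 ratio went from 2.16 to 0.91 without the highest cell of each group. Vegfa went from 1.15 to 0.97 in the same way. Only Pdgfa of 6 ligands tested was past 2-fold against the cells with low Ms4a7. Tgfb1 was at 409 against 207 CPM, just under 2-fold. The epidermal growth factor relatives Ereg, Tgfa and Btc and the vessel factor Vegfc were at 0 UMIs, and Areg had 1.

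Of 12 genes described in lipid-associated macrophages, 6 were higher, namely Trem2, Gpnmb, Lpl, Spp1, Ctsd and Cd36, and Fabp5 was lower at 122 against 1383 CPM. Against the cells with low Ms4a7, Trem2, Gpnmb and Ctsd were past 2-fold, Apoe was past it downward at -1.41, and Cd36 (0.99) and Fabp5 (-0.76) were under it. Cd36 turned to -1.22 when the rule was read on cells drawn to 2000 UMIs. Gpnmb, a membrane glycoprotein of lipid-laden and lysosome-rich macrophages, was at 652 against 138.5 CPM. Of 20 lysosome genes, 6 were higher, namely Ctsb, Ctsd, Ctsl, Hexa, Lipa and Mitf, and none was lower, with a median log2 ratio of 0.81. Of these 6, Ctsb, Ctsd, Ctsl and Lipa were also past 2-fold against the cells with low Ms4a7. Ctsd, a lysosomal protease, held 1, 39 and 265 UMIs in the lowest, median and highest member and stood at 2942 against 685.5 CPM. Among the cells, Ctsd and Hmox1 went together with a Spearman rho of 0.59 over 268 cells, and Ccl3 and Ccl4 with 0.51. Gdf15 and Ms4a7 had a rho of 0.03, within the range that the rule left. These values share 1 library and 1 denominator per cell and are a description.

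Gdf15 is a known target of the integrated stress response and of p53, and Hmox1 of the oxidative stress factor Nrf2, so the other genes of these pathways were listed. Of 18 integrated stress response genes tested, Slc7a11 was higher and Phgdh and Mthfd2 lower, and the median log2 ratio was -0.22. Of 16 of these genes tested against the low Ms4a7 cells, Slc7a11 was past 2-fold upward and Asns and Phgdh downward, with Mthfd2 at -0.47, and against the cycling cells with Ms4a7 and Gdf15 none of 16 was higher and 4 were lower. Atf4 was at 114 against 105 CPM and Ddit3 at 28.7 against 33.9 CPM. Of 11 p53 targets, Zmat3 was the one past 2-fold, at 21.3 against 9.01 CPM, and Cdkn1a was at 293 against 396 CPM. None of 10 p53 targets tested was past 2-fold against the low Ms4a7 cells, with Zmat3 at 0.92 on the log2 scale. Of 12 Nrf2 targets, 6 were higher and none lower, with a median of 0.98: Hmox1, Nqo1, Txnrd1, Srxn1, Slc7a11, which is on both lists, and Prdx1. Prdx1, a peroxidase, was at 2264 against 829 CPM. Srxn1 was at 51.7 against 25.1 CPM. Against the cells with low Ms4a7, only Hmox1 (1.87) and Slc7a11 (1.57) of 11 tested were past 2-fold, Nqo1, Txnrd1, Srxn1 and Prdx1 were at 0.74, 0.87, 0.79 and 0.68, and the glutathione reductase gene Gsr was past 2-fold lower at -1.42. Gsr was at -2.18 against the granulocyte cells, -0.08 against all cells with Mki67 or Top2a UMIs and 1.66 against mature cells. Against the cycling cells with Ms4a7 and Gdf15, none of the 10 Nrf2 targets tested was past 2-fold.

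Nrf2 binds antioxidant response elements, so promoters of the targets that were higher than in all other kept cells are shown as context. RefSeq windows of GRCm38.p6, from 250 bases before to 50 bases after a gene's start, were searched on both strands for TGACNNNGC and TGAGNNNGC, which do not share a match. Either motif was in 27.8% of all 32851 windows and in at least 1 window of 30.8% of 27025 genes. The table held 9 of the 12 Nrf2 targets, and 8 of them had a match. Of the 6 higher ones 5 were in the table, and 4 had a match, which is given here in capitals with 10 bases on either side, 5′ to 3′ on the gene's strand. A match is a run of letters and not a measured site.

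Txnrd1, chr10:82859104-82859132, plus strand: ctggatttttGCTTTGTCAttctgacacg
Srxn1, chr2:152105356-152105384, plus strand: tctactgagaGCCGACTCAtcctctctgg
Srxn1, chr2:152105469-152105497, plus strand: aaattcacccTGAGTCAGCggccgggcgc
Srxn1, chr2:152105542-152105570, plus strand: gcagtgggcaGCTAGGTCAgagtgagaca
Slc7a11, chr3:50443692-50443720, minus strand: taatgttggcGCTTTCTCAagctggagtt
Prdx1, chr4:116685456-116685484, plus strand: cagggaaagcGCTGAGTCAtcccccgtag
Prdx1, chr4:116685604-116685632, plus strand: acctcttcctGCGTTCTCAcggctctttc

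Of 8 vitamin D pathway genes tested, none was past 2-fold, with a median log2 ratio of 0.24. Vdr, the receptor, was at 163 against 133.5 CPM, and Cyp24a1 (chromosome 2 from 170482708 to 170497145) at 408 CPM (390 to 426) against 311 CPM, a log2 ratio of 0.39. Cyp24a1 held 0, 5 and 44 UMIs in the lowest, median and highest member, and 46.6% of members held it at 2000 UMIs. The cycling cells with Ms4a7 and Gdf15 had more, at 731.5 CPM and 65.9%, and mature cells less, at 55.4 CPM and 6.09%. In the whole untreated library Cyp24a1 had 1 UMI, and in the Ndrg2-KO library 0, against 36662 UMIs in the VD3 library.

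The remaining lists were mixed. Of 6 premature DC markers tested, Lyz2, Fn1, Mmp12 and Csf1r were higher and Cd34 was lower. Against the low Ms4a7 cells, Fn1 and Mmp12 of 5 tested were past 2-fold upward and Chil3 downward at -1.78, while Lyz2 was at 0.66 and Csf1r at 0.82. Chil3 was at -4.07 against the granulocyte cells, -1.04 against all cells with Mki67 or Top2a UMIs and 3.17 against mature cells. Lyz2, the lysozyme of myeloid cells, was at 9146 against 2807 CPM, and Fn1, which encodes fibronectin, at 143 against 36.7 CPM. Of 17 glycolysis and hypoxia genes, the glucose transporter Slc2a1, the hexokinase Hk2 and the hypoxia factor Hif1a were higher and Pfkfb3 and Ndrg1 lower, with Hif1a at 487 against 185 CPM. Of 12 costimulatory and inhibitory surface genes, Lilrb4a, Lgals9 and Tnfsf9 were higher and Cd80, Cd86, Cd40 and Tnfsf4 lower. Among 11 immediate early genes tested, Fos, Egr2 and Ier3 were higher and none was lower. Against the cells with low Ms4a7, no immediate early or surface gene tested was past 2-fold, with Fos at 0.06 (-0.05 to 0.18), Ier3 at -0.39 and Lilrb4a at -0.35, and of the glycolysis and hypoxia genes Hif1a was past it upward and Egln3 and Ndrg1 downward. Both Ms4a family genes that could be tested, Ms4a6c and Ms4a6d, were higher, with Ms4a6d at 73.4 against 15.5 CPM. Of these lists, the count against the cycling cells with Ms4a7 and Gdf15 was 1 higher gene, Mmp12, and none lower.

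Clustering without the 5 genes of the rule put most of these cells together but did not isolate them. Of 13 clusters, 1 of 959 cells held 241 of the 268 members, or 89.9% (85.7 to 93.3), and members made up 25.1% of that cluster. At the finer resolution of 1.0 they were divided, with 135 (50.4%) in 1 cluster and 107 (39.9%) in another. The same cluster held 28.2% of the cycling cells with Ms4a7 and Gdf15, and another of 1230 cells held 68.3% of them. Against the 718 cells of their cluster that were not members, 4 of 6695 genes were higher past 2-fold and 29 lower, and Ccl3, Ccl4, Pdgfa and Hbegf were all under 2-fold, with log2 ratios of 0.51, 0.71, 0.25 and 0.17.

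The same rule was then applied to the libraries that had not been used to choose the cells. In the untreated DCs, 2 of 7257 kept cells passed (0.0276%), and in the Ndrg2-KO DCs 12 of 7969 (0.151%), although both libraries were deeper, with medians of 15804 and 16316 UMIs per cell against 12089 with VD3. Drawn to 2000 UMIs, the rule took 39 of 7676 cells with VD3, 1 of 6785 untreated and 0 of 7835 Ndrg2-KO cells, the last of which allows a share of up to 0.0471%. The genes of the rule differed over the whole libraries as well. Gdf15 was at 246 CPM with VD3, 6.84 CPM untreated and 5.66 CPM with Ndrg2-KO, and Ms4a7 at 42.6, 1.94 and 8.77 CPM. Pdgfa was at 131.5, 13.9 and 15.5 CPM and Hbegf at 74.3, 4.34 and 4.03 CPM. Some genes higher in the members than in the rest of their library were at their lowest in the VD3 library as a whole. In the same order, Mmp12 was at 104.5, 1864 and 7081 CPM and Mrc1 at 14.1, 62.7 and 95.3 CPM. Pf4 was at 290, 556 and 901.5 CPM. Ctsd, Csf1r and Hmox1 were lowest with VD3 too, while C1qb was highest with it at 445, 297 and 397 CPM. The members alone had 618 CPM of Mmp12 and 63.1 CPM of Mrc1. Culture, treatment and library cannot be told apart here.

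Ccl3 and Ccl4 differed less between the DC libraries than Pdgfa and Hbegf. Ccl3 was at 139 CPM with VD3, 74.1 CPM untreated and 122 CPM with Ndrg2-KO, and Ccl4 at 201, 60.4 and 82.2 CPM. In the 12 rule cells of the Ndrg2-KO library against the rest of it, the log2 ratio was 0.64 (0.18 to 1.07) for Ccl3, with 43 UMIs, and -3.21 (-6.26 to -1.36) for Ccl4, with 2 UMIs, the opposite direction from the VD3 members. It was -0.22 (-2.50 to 1.33) for Pdgfa, with 3 UMIs, and 1.58 (1.41 to 1.76) for C1qb, with 268 UMIs.

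In the wounds, 165 of 1948 cells (8.47%) passed the rule with control DCs, 237 of 5681 (4.17%) with Ndrg2-KO DCs and 186 of 3403 (5.47%) with blank hydrogels. The median depths of these libraries were 10795, 4415 and 5603 UMIs, and drawn to 1000 UMIs the shares were 0.416% (0.180 to 0.818), 0.286% (0.164 to 0.465) and 0.150% (0.0486 to 0.349), which turns the order of the last pair, with intervals that overlap. The wounds also contained host skin and blood cells, and the labels do not tell seeded from host cells. In rule cells against the rest of the same wound library, 10.9%, 9.4% and 8.46% of genes were higher past 2-fold, in that order, and 18.2%, 16.4% and 16% lower. Of the genes higher in the VD3 members that could be tested in the wounds, 183 of 448 (40.8%), 150 of 483 (31.1%) and 151 of 463 (32.6%) were higher there too, while 74, 80 and 67 of them were lower past 2-fold. Seen from the wounds, these made up 20.6%, 18.4% and 21.8% of the higher genes that were also tested in the VD3 library.

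Genes of the members differed in how they stood in the wounds. C1qb had log2 ratios of 2.45, 2.30 and 2.24 in the 3 wound libraries and 1.80 with VD3, and Csf1r 2.01, 1.62 and 1.63 against 1.65. The chemokine Pf4 had 2.06, 1.35 and 1.29 against 2.15. Hbegf had 2.11, 1.87 and 1.71 in the wounds against 1.20, and Pdgfa 1.08, 1.09 and 0.53 against 1.41. Mmp12 was under 2-fold in all 3, at -0.01, 0.70 and 0.72 against 2.91. Hmox1, at 2.05, 1.32 and 1.55 in the wounds, was 2.42 with VD3. Ccl4 was lower in the rule cells than in the rest of each wound, with -0.43, -1.65 and -2.26 against 2.70 with VD3, and Ccl3 was higher with control DCs at 0.75 (0.684 to 0.824) and lower in the others, at -1.29 and -1.65, against 2.25. The rest of each wound had 902, 3941 and 2248 CPM of Ccl4 in that order, well above the 163.5 CPM of the rest of the VD3 culture. Cyp24a1 had no UMI in the rule cells of the wounds.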

How the data were processed

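The authors deposited raw UMI counts per gene and cell barcode for 6 mouse libraries, 1 per condition, made with Cell Ranger (3.1.0 for DCs and 6.0.0 for wounds, per the file headers) and aligned to mm10 per the methods, while the labels list mm9. Cell limits followed the methods, with 300 unique transcripts taken as 300 genes. UMIs were summed over cells and scaled to 1000000 (CPM). Intervals were Poisson for CPM, Clopper-Pearson for shares and conditional binomial for ratios, all exact at 95%, and the code was tested on simulated data. The kept VD3 cells held 116461484 UMIs and the members 4836523, at which 785 UMIs of Hbegf gave an interval of 151 to 174 CPM.

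The members and the gene lists were chosen with earlier results of these data known. Named genes were those of the rule and the lists, and the 10 largest rises and falls by the interval bound nearest 0, without mitochondrial and ribosomal protein genes; the same ranking against cycling cells, that comparison itself and the one with low Ms4a7 cells over all genes were added after the data were seen. Counts of 0 were set to 3 UMIs for ratios, while interval bounds used the count of 0. Cells were drawn to 2000 UMIs (1000 in wounds), which left out 1149 VD3 cells and no member. Clusters came from Louvain at resolution 0.5 on a graph of 15 neighbours, built on 15 components of the 2000 most variable genes. Doublets were kept: Scrublet's automatic threshold marked 0 cells and so did not work here, and 2 members (0.746%) were among the 6% highest scores. Of 31063 gene IDs, 31011 matched GENCODE M21 (GRCm38), the source of coordinates. Python 3.11.15, NumPy 2.4.6, SciPy 1.17.1, scanpy 1.11.5 and igraph 0.11.9 were used.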

Additional observations from a re-analysis of the deposited data

How the results depend on the processing

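The number of members stayed within 1.5 times of 268 with 300 UMIs as the limit, all barcodes, no high doublet scores and stricter limits on Ms4a7, Gdf15 or Ccr7, but fell to 24 under a 5% mitochondrial limit and to 39 when the rule was read on cells drawn to 2000 UMIs. The counts of 554 higher and 1223 lower genes went to 248 and 691 against the other cells with low Ccr7 and no cycling UMI and to 345 and 673 with at least 1000 UMIs per gene, and without a gene filter 1433 were higher. Against cycling cells with Ms4a7 and Gdf15 they were 17 and 278, against cells with low Ms4a7 133 and 245, and against the other cells of the same cluster 4 and 29, all chosen after seeing the data; these comparisons tested fewer genes. Of the called genes 31.2% were higher, against 46.7% without a filter and 5.76%, 35.2% and 12.1% in these last comparisons.

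The share of members in 1 cluster was 50.4% at resolution 1.0 and 81.3% with 30 principal components. On drawn cells, the rule took 0% of Ndrg2-KO DCs at 2000 UMIs and, at 1000 UMIs, 0.416% of cells of the wounds with control DCs, 0.286% of those with Ndrg2-KO DCs and 0.150% of those with blank hydrogels. Of 34 named genes past 2-fold, 24 remained past it under every alternative other than those chosen after seeing the data, and 10 under these too. The genes that did not in the first set were Ccl3, Cd36, Csf1r, Fabp5, Hbegf, Igf1, Inhba, Mmp13, Srxn1 and Vegfa, with Ccl3 at 0.95 and Hbegf at 0.71 (log2) against the other cells with low Ccr7. Cd36 reversed to -1.22 in the drawn rule and -0.0586 within the cluster, where Igkc was at 0.33. Against cycling cells Pdgfa was at -0.00682, Igkc at 0.90 and Fabp5 at 0.00408. The cause was not tested. No paired analysis was possible because each condition was 1 library and no test was made. Depth limits the members to cells that could show 3 UMIs of the rule, and genes under 200 UMIs were not compared.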
